A study of Mus musculus with 12 samples.

Results

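N-acetyl-cysteine (NAC) given in the drinking water was compared with no NAC in haematopoietic stem and progenitor cells of wild-type mice. The comparison uses 6 of the 12 arrays of the series, 3 from wild-type mice given NAC and 3 from wild-type mice without it (mock), chosen by their labelled genotype and treatment alone. All mice were C57BL/6, and the cells were LSK cells, that is, cells sorted from bone marrow as lacking lineage markers and carrying Sca-1 and c-Kit, and used without culture. NAC was supplied at 1 g per liter from the mating of Mll5+/- parents onward and through the whole life of the offspring, so the treated wild-type mice were exposed before as well as after birth. The other 6 arrays are from Mll5-/- mice, 3 with NAC and 3 mock, and their values are given beside the wild-type ones. In the reported fit the spread behind each standard error and p-value was estimated from all 12 arrays, so the mutant arrays enter it. The sources used here do not state age, or whether each array holds 1 mouse or a pool, so p-values measure the spread between these arrays.

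NAC is a precursor of cysteine, the limiting building block of the thiol glutathione, and is widely used to lower reactive oxygen species. Blood stem cells are kept largely quiescent at low levels of reactive oxygen species, and FoxO transcription factors, the kinase ATM and antioxidant enzymes are known to guard that state, while higher levels go with entry into cycle and myeloid differentiation. In the series, NAC serves to ask which features of cells without Mll5 (also named Kmt2e) depend on reactive oxygen species. The wild-type arrays compare mice given NAC with mice without it where Mll5 is present. They hold no measure of reactive oxygen species.

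Signals are log2 values of the deposited RMA table, an array summary in which 1 unit is a 2-fold difference. They were available for 22180 genes, each represented by 1 probe set. Array medians over all probe sets lay between 2.89 and 2.96, and the correlation between pairs of arrays over genes was between 0.976 and 0.988. The array of wild-type mock 1 had a lower weight (0.71) than the other 5 wild-type arrays (0.87 to 1.141) when array quality was estimated, and results that rest on it are given without it below. The sorted cells carried the marker genes of their gate. Kit, the receptor used for sorting, stood at 9.17, 9.21 and 9.24 in mock and 9.18, 9.03 and 8.97 with NAC, Cd34 at 10.28 to 10.50 and Ptprc, the leukocyte antigen CD45, at 8.29 to 8.68. The gene of Sca-1, Ly6a, was not matched to a probe set of its own and is not analysed here. Xist, the RNA of the inactive X chromosome, was between 10.90 and 11.19 on all 6 arrays, and the Y-linked genes Kdm5d, Eif2s3y and Uty were between 1.54 and 2.51. Among markers of other cells, 5 of 21 T and NK cell genes, 11 of 22 neutrophil granule genes and 9 of 17 B cell genes were at or above the median level of all genes (3.17). So were 8 of 14 plasma cell, 12 of 17 erythroid, 13 of 23 monocyte and macrophage and 15 of 20 dendritic cell genes. The counts were 11 of 19 for mast cells, basophils and eosinophils and 8 of 23 for stromal and endothelial cells. Over all genes the count was 11064 of 22180. Ly6g of neutrophils was between 1.85 and 2.57, Cd3e of T cells between 2.04 and 2.52 and Ms4a1 of mature B cells between 1.82 and 1.93. Other members of the same lists had high signals, such as Nkg7 at 8.90 to 9.59, Lat at 6.44 to 7.0 and S100a9 at 5.78 to 6.96.

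Few genes passed the test. Of 22180 genes, 1 rose with NAC (0.00451% of genes tested, limma with Benjamini-Hochberg adjusted p under 0.05) and 1 fell (0.00451%), together 0.00902%. The gene that rose was Igkj1, a joining segment of the immunoglobulin kappa light chain, and the gene that fell was Gprc5b, an orphan receptor of the G protein-coupled family. At an unadjusted limma p under 0.05 there were 657 genes higher and 656 lower, together 1313 or 5.92% of genes. If no gene differed, 1109 would be expected at that threshold. The 3 NAC arrays all lay above the 3 mock arrays for 5.42% of genes and all below for 5.32%. The median difference over all genes was below 0.01 in size on the log2 scale, with 48.9% of genes higher and 50.3% lower, and among genes at or above the median level 50.8% higher and 48.5% lower. The median standard error of a difference was 0.16.

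**Figure D1:**
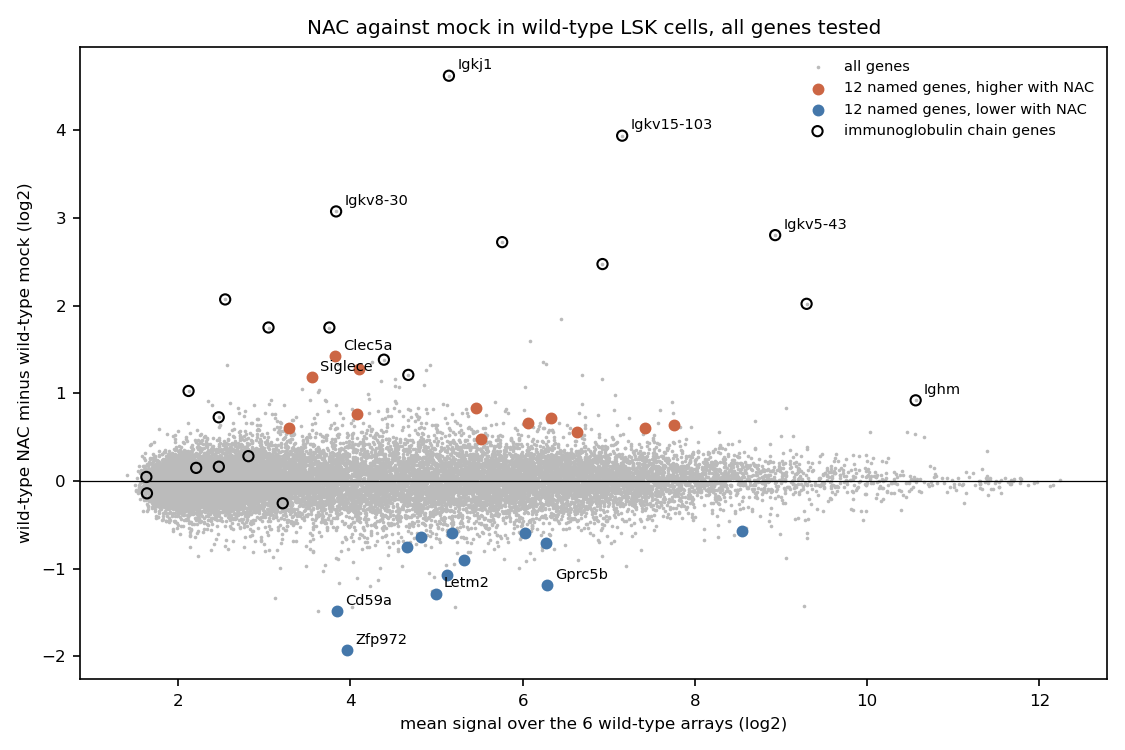
Difference between wild-type NAC and wild-type mock (log2, vertical axis) against the mean log2 signal over the 6 wild-type arrays (horizontal axis), 1 grey point for each of 22180 genes. Filled points are the 12 genes with the smallest p in each direction among genes at or above the median level, leaving out gene segments, small RNAs and unnamed clones, and open circles are 21 immunoglobulin chain genes, which include the gene with the largest difference, Igkj1 at 4.62.

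Igkj1 had signals of 2.43, 2.55 and 3.52 in the mock arrays and 7.98, 7.17 and 7.21 with NAC. All 3 NAC arrays were far above all 3 mock arrays. The difference was 4.62 ± 0.31 (log2, SE of the fit, n = 3 and 3) with a limma adjusted p of 3.44e-05. The mock signals lie at the low end of the scale, where the array cannot tell a low level from background, so no fold is given. Igkj1 was also the gene called in the mutant, at 2.47, 2.57 and 2.56 in mock and 5.99, 4.99 and 5.57 with NAC, a difference of 2.98 ± 0.31 with a limma adjusted p of 0.00618. The 2 differences did not pass a test against each other (1.64 ± 0.43, limma interaction adjusted p of 0.999).

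Gprc5b had signals of 6.59, 7.07 and 6.96 in mock and 5.64, 5.84 and 5.57 with NAC, with no overlap. The difference was -1.19 ± 0.15 (log2, SE, n = 3 and 3; limma adjusted p of 0.0291). In the mutant it was -0.23, and the interaction did not pass (-0.96 ± 0.21, limma adjusted p of 0.817). The call on Gprc5b was lost when wild-type mock 2 (limma adjusted p of 0.241), mock 3 (0.177), NAC 1 (0.176) or NAC 3 (0.199) was left out, and in a fit of the 6 wild-type arrays alone (0.187), with differences of -1.09 to -1.19.

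Genes just outside the threshold are described with their values and were not called. Zfp972, a zinc finger protein gene, was at 5.21, 4.89 and 4.66 in mock and 3.27, 3.17 and 2.53 with NAC, a difference of -1.93 ± 0.27 (limma adjusted p of 0.0533). With genes below the median level removed, its adjusted p was 0.0308. Siglece, which encodes an inhibitory sialic acid receptor of myeloid cells, was at 3.04, 2.76 and 3.07 in mock and 4.29, 3.79 and 4.34 with NAC, a difference of 1.18 ± 0.18 (adjusted p of 0.113, and 0.0406 without NAC 2). In the mutant, Zfp972 differed by -0.15 and Siglece by 0.02.

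The 12 genes with the smallest p among those higher with NAC, at or above the median level and leaving out gene segments, small RNAs and unnamed clones, were Siglece, Trim43c, Necap2, Oprd1, Slain2, Clec5a, Tamm41, Sprtn, Sfxn1, Gas7, Rnf123 and Slc16a1. None passed the adjusted threshold. None of the 12 had overlapping groups, against 5.42% of all genes with NAC all above mock, but choosing genes by smallest p in this comparison makes that likely. Clec5a, an activating receptor of myeloid cells, was at 3.37, 2.79 and 3.17 in mock and 4.37, 4.27 and 4.95 with NAC, a difference of 1.42 ± 0.29. Trim43c, of a gene family known from early embryos, differed by 1.28 ± 0.21. Sprtn, a protease that clears proteins crosslinked to DNA, was at 4.82, 5.15 and 5.16 in mock and 5.86, 5.64 and 6.14 with NAC, a difference of 0.84 ± 0.18. Sfxn1, which brings serine into mitochondria, differed by 0.60 ± 0.13, Tamm41, an enzyme of cardiolipin synthesis, by 0.56 ± 0.12, and Slc16a1, the lactate and pyruvate transporter MCT1, by 0.67 ± 0.15. The others were Necap2, an endocytosis adaptor (0.72), Slain2, a microtubule plus-end protein (0.64), Oprd1, the delta opioid receptor (0.61), Gas7 (0.76) and Rnf123, a ubiquitin ligase (0.48). In the mutant 11 of these 12 genes differed in the same direction, from 0.02 for Siglece to 0.89 for Clec5a, and Necap2 differed by -0.23.

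By the same rule, the 12 genes with the smallest p among those lower with NAC were Gprc5b, Zfp972, Letm2, Zfp429, Cd59a, Cds2, Pex14, Cyria, Clec2d, Chrnb1, Tk2 and Asb13. Cd59a, which protects cells from complement, was at 4.63, 4.45 and 4.67 in mock and 2.95, 3.60 and 2.74 with NAC, a difference of -1.49 ± 0.28. Letm2, a relative of a mitochondrial inner-membrane protein, was at 5.37, 5.45 and 6.07 in mock and 4.45, 4.32 and 4.27 with NAC, a difference of -1.28 ± 0.22. Both genes had no overlap between groups, with limma adjusted p of 0.376 and 0.224. Zfp429, a second zinc finger protein gene, differed by -1.07 ± 0.20. Tk2, the mitochondrial thymidine kinase, differed by -0.90 ± 0.20 and Pex14, a part of the peroxisomal import machinery, by -0.59 ± 0.12. The phospholipid enzyme gene Cds2 differed by -0.59, Cyria, which binds the actin regulator Rac1, by -0.71, Clec2d, a lectin recognised by natural killer cells, by -0.57, Chrnb1, an acetylcholine receptor subunit, by -0.64, and Asb13 by -0.75. In the mutant 8 of these 12 genes differed in the same direction, and Asb13 by as much as in wild type, -0.76. The same direction in both genotypes was seen for 52.9% of all genes and 57.0% of genes at or above the median level. The 2 comparisons share no arrays, and over all genes their differences had a Pearson correlation of 0.198 and a Spearman correlation of 0.125, a description over genes that are not independent of each other.

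**Figure D2:**
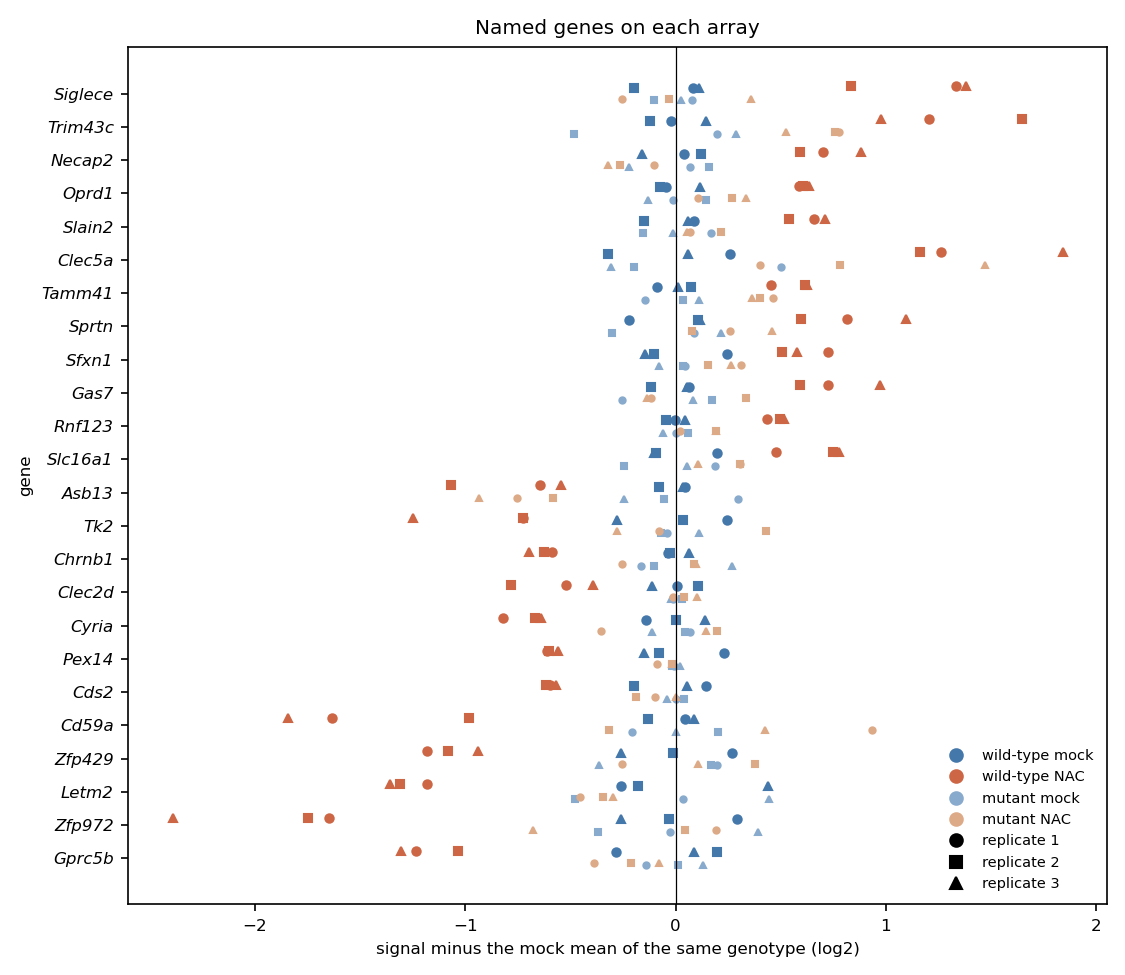
Signal on each of the 12 arrays of the 12 genes in each direction with the smallest p among genes at or above the median level, leaving out gene segments, small RNAs and unnamed clones (so not Igkj1), as the log2 difference from the mock mean of the same genotype (horizontal axis). For each gene the wild-type arrays are the upper row and the mutant arrays the lower row, and colours give the group and marker shapes the replicate. In wild type all 3 NAC arrays lie on 1 side of all 3 mock arrays for every gene shown. The choice by smallest p makes this likely, and over all genes the shares were 5.42% above and 5.32% below.

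No gene passed the test of the difference between the NAC effect in wild type and in the mutant by limma (0 of 22180, against 934 genes or 4.21% at an unadjusted p under 0.05), so no effect described here was shown to be particular to wild type. Without wild-type NAC 3 the count was 2. The genes with the smallest p where the wild-type effect was the higher were Siglece, Necap2, Blnk, Otud7b and Glyctk, and those where it was the lower were Gprc5b, Zfp972, Cd59a, Ndrg2 and Tlcd1. Their limma adjusted p lay between 0.744 and 0.885. Blnk, an adaptor of the B cell receptor, was at 4.22, 4.42 and 4.80 in mock and 5.41, 4.74 and 5.29 with NAC in wild type, a difference of 0.67 with overlap, against -0.66 in the mutant. Ndrg2, a stress-responsive gene, was at 5.02, 5.23 and 4.93 in mock and 4.39, 4.63 and 4.20 with NAC, a difference of -0.65, against 0.74 in the mutant. Otud7b, a deubiquitinase of NF-kB signalling, differed by 0.37 in wild type and -0.57 in the mutant, Glyctk by 0.22 and -0.73, and Tlcd1 by -0.29 and 0.90. With the probe sets of Tlcd1 averaged, its wild-type difference turned to 0.08.

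Immunoglobulin chain genes were the group with the largest differences. Of 21 measured, 19 were higher with NAC, with a median difference of 1.38 against a median below 0.01 in size over all genes. In 9 of 21 the NAC arrays all lay above the mock arrays, against 5.42% of all genes, and 1 passed the test, Igkj1. The median was 0.83 without wild-type NAC 2 and 0.26 in the mutant, where 17 of 21 were higher. The list was formed from symbols after values had been seen, and variable segments resemble each other in sequence, so a probe set may read several of them.

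The segments differed strongly from array to array. Igkv15-103 was at 5.12, 5.56 and 4.88 in mock and 10.21, 8.75 and 8.41 with NAC, a difference of 3.94 ± 0.93 (limma adjusted p of 0.497). In the mutant it was high on 2 of 3 NAC arrays, at 9.13 and 10.11, and at the mock level on the third, 5.02. Igkv8-30 was at 2.24, 2.35 and 2.30 in mock and 5.47, 3.82 and 6.82 with NAC in wild type, whereas in the mutant the array with a high signal was a mock array, at 6.54. Igkv9-120 was at 2.02, 8.73 and 6.32 in mock and 8.78, 9.60 and 6.11 with NAC, so that the mock arrays alone spanned nearly the whole range. Igkv5-43 was at 8.59, 8.45 and 5.55 in mock and 11.39, 10.68 and 8.93 with NAC. In wild type Igkv15-103, Igkv8-30 and Igkv5-43 were thus higher on all 3 NAC arrays than on any mock array. Igkv9-120 overlapped between the groups, and its mock SD was 3.40.

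Heavy chain genes and the chain that joins secreted antibodies were also higher on average, without passing the test. Ighm, the constant region of IgM, was at 10.21, 9.45 and 10.65 in mock and 11.70, 11.13 and 10.24 with NAC, a difference of 0.92 ± 0.43 with overlap. The variable segment Igh-VS107 was at 8.95, 8.21 and 7.70 in mock and 10.57, 10.45 and 9.90 with NAC, with no overlap and a difference of 2.02 ± 0.96. Jchain, which joins secreted IgM and IgA chains, was at 5.68, 5.14 and 5.73 in mock and 7.50, 8.21 and 6.39 with NAC, a difference of 1.85 ± 0.61 (limma adjusted p of 0.704). In the mutant Jchain differed by 2.01. Irf4, a transcription factor needed for plasma cells, was at 2.81, 2.26 and 2.78 in mock and 2.89, 3.97 and 3.32 with NAC.

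Other genes of antibody-secreting cells are given beside these because the array reads the whole sorted population. Xbp1, the plasma cell transcription factor of the secretory pathway, was between 6.21 and 6.60 in mock and between 6.26 and 6.78 with NAC. Mzb1, a chaperone of IgM assembly, was between 3.62 and 4.15 in mock and between 3.62 and 3.94 with NAC. Sdc1, the plasma cell surface marker CD138, was between 6.42 and 6.64 in mock and between 6.20 and 6.33 with NAC, all below mock. Xbp1, Mzb1 and Sdc1 belong to a list of 14 plasma cell genes, of which 9 were higher in wild type and 12 in the mutant. The wild-type differences of the list ran from -0.26 to 1.85, with a median of 0.14 (0.06 without mock 3). The list mean was -0.16 to 0.16 in mock and 0.17 to 0.46 with NAC relative to the mock mean. Of 17 B cell genes 7 were higher, with a median difference of -0.02 that turned to 0.06 without mock 1. Cd79a, a chain of the B cell receptor complex, was between 4.53 and 4.73 in mock and between 4.45 and 4.74 with NAC, and Pax5 between 3.18 and 3.40 and between 2.98 and 3.37. In a bulk sample more cells of a type and more RNA per cell cannot be told apart, and the part of either in these signals was not tested.

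**Figure D3:**
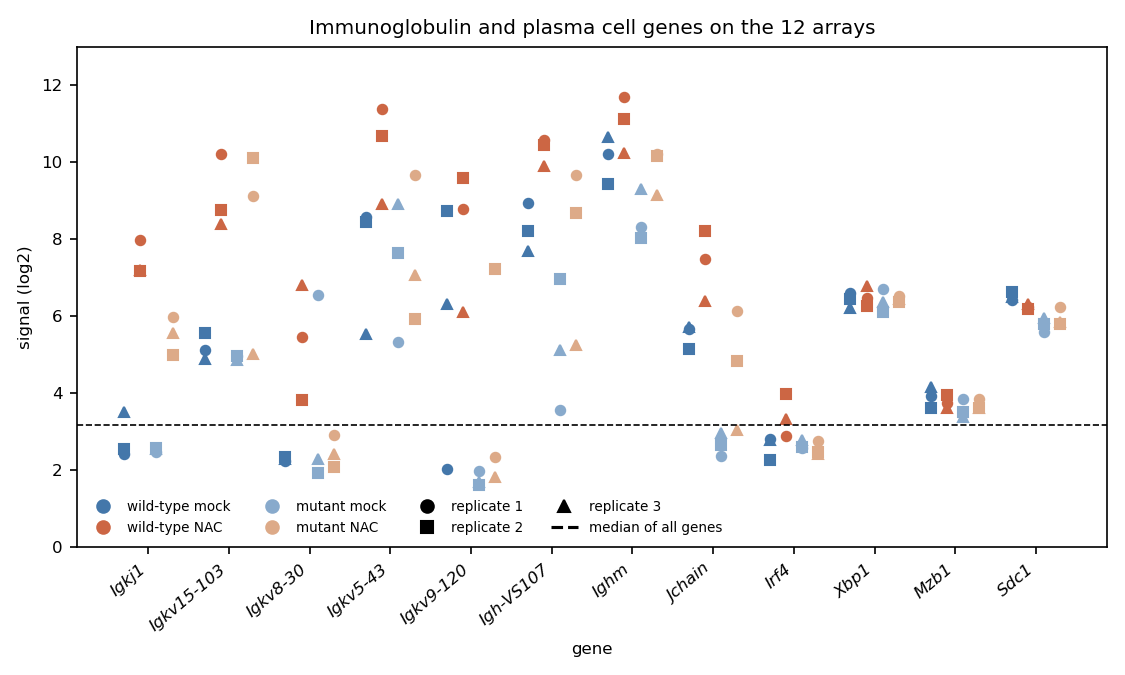
Log2 signal of 7 immunoglobulin chain genes and of 5 other genes of antibody-secreting cells on the 12 arrays, with colours for the 4 groups, marker shapes for the replicate and a dashed line at the median of all genes (3.17). Igkj1 is above 4.9 on all 6 NAC arrays and below 3.6 on all 6 mock arrays. The wild-type signals of Xbp1, Mzb1 and Sdc1 each lie within a narrow range. Sdc1 is lower on all wild-type NAC arrays than on any wild-type mock array. In wild type every variable segment shown except Igkv9-120 is higher on all NAC arrays than on any mock array. In the mutant Igkv8-30 is high on a mock array.

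The remaining genes are described by lists of known function, each read against 48.9% of all genes higher and a median difference below 0.01 in size. None of the members of any of these lists passed the test over all genes, so counts and medians are descriptions of 3 against 3 arrays. The lists with the highest medians were granulocyte and monocyte progenitor genes (0.36), endoplasmic reticulum folding genes (0.23) and genes of G2 and M phase (0.22). The lowest were blood stem cell genes (-0.23) and FoxO targets (-0.21).

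**Figure D4:**
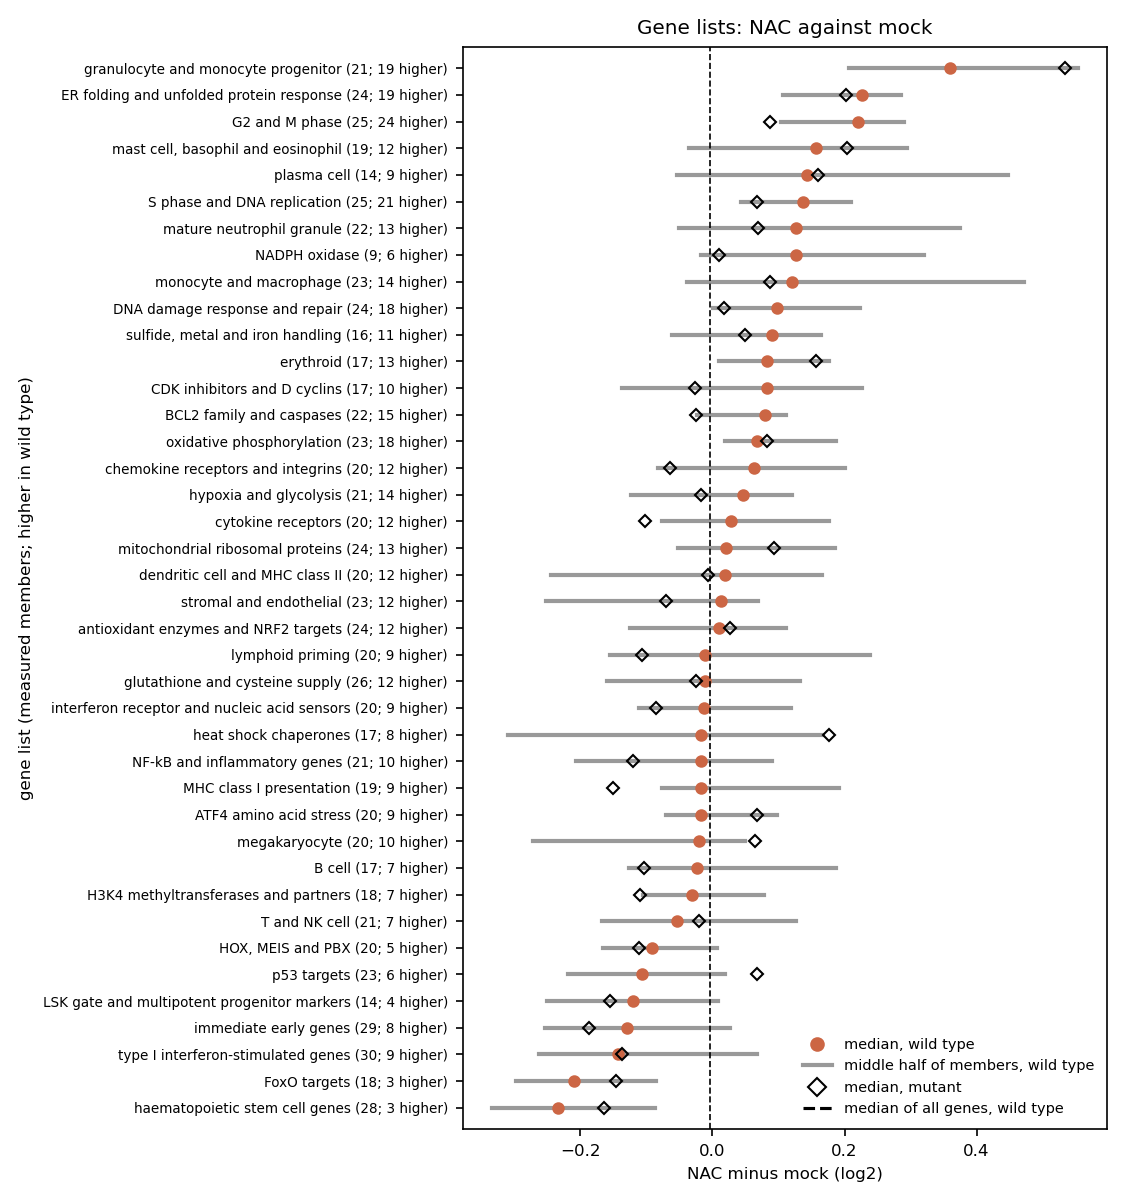
Median log2 difference between NAC and mock of each gene list in wild type (filled circles) with the middle 50% of its members (grey bars) and the median in the mutant (open diamonds), with the number of measured members and the number higher in wild type beside each name. The dashed line is the median of all genes, granulocyte and monocyte progenitor genes are at the top with 0.36, and blood stem cell genes at the bottom with -0.23.

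Genes that oppose oxidants were higher and lower in like numbers. Of 24 antioxidant enzymes and targets of NRF2, the transcription factor that answers to oxidants and electrophiles, 12 were higher and 12 lower, with a median of 0.01 (-0.04 without mock 3, 0.05 without NAC 3). The NAC arrays were all above the mock arrays for 4 of these 24, against 5.42% of all genes, and all below for 0, against 5.32%. These 4 were Gsr, Gpx1, the mitochondrial thioredoxin gene Txn2 (0.18 ± 0.13) and the biliverdin reductase gene Blvrb (0.18 ± 0.18), named after their values were seen. Of 26 genes of glutathione metabolism and cysteine supply 12 were higher and 13 lower, with a median of -0.01 (0.04 without NAC 2), and the NAC arrays were all above for 1 and all below for 2. Gclc and Gclm, the subunits of the enzyme that begins glutathione synthesis, differed by 0.10 ± 0.15 and 0.08 ± 0.22. Slc7a11, the cystine importer, was between 1.85 and 2.13 on all 6 arrays. Sod1, the cytosolic superoxide dismutase, differed by 0.04 ± 0.11, the glutathione peroxidase Gpx1 by 0.13 ± 0.11 and the catalase Cat by -0.22 ± 0.14. These standard errors leave room for small differences in either direction.

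Single members of these lists differed more, in both directions. Gsr, which regenerates reduced glutathione, was at 7.87, 6.90 and 7.32 in mock and 8.18, 8.08 and 8.15 with NAC, a difference of 0.77 ± 0.26 with no overlap (limma adjusted p of 0.718). Mgst2, a microsomal glutathione transferase, was at 6.19, 5.46 and 5.99 in mock and 6.54, 6.34 and 6.63 with NAC, a difference of 0.62 ± 0.21, and Gsto1 differed by 0.43 ± 0.18. Nqo1, a quinone reductase and a standard target of NRF2, was at 3.89, 3.59 and 3.66 in mock and 3.59, 2.57 and 2.93 with NAC, a difference of -0.68 ± 0.28. Hmox1, the haem-degrading target of the same factor, was at 5.52, 4.43 and 4.89 in mock and 4.14, 4.29 and 4.84 with NAC, with overlap, and Gstp1 differed by -0.44 ± 0.20. Of 9 NADPH oxidase genes, which produce superoxide, 6 were higher. Cybb, its catalytic subunit in phagocytes, was at 6.02, 3.53 and 3.74 in mock and 5.12, 5.16 and 5.19 with NAC, where the highest value of all was wild-type mock 1. Mt1, a metallothionein, was at 8.44, 7.26 and 6.85 in mock and 7.89, 8.33 and 8.17 with NAC, again with mock 1 highest.

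FoxO targets were lower on balance, with 15 of 18 members lower against 50.3% of all genes and a median of -0.21. The NAC arrays lay below the mock arrays for 4 of 18, against 5.32% of all genes. Sesn3, which restrains growth signalling through mTORC1, was at 6.45, 6.69 and 6.70 in mock and 6.19, 5.71 and 6.29 with NAC, a difference of -0.55 ± 0.20. Its relative Sesn1, also a target of p53, was at 6.92, 7.14 and 7.50 in mock and 6.39, 6.86 and 6.72 with NAC, a difference of -0.53 ± 0.20. Txnip, the inhibitor of thioredoxin, was at 9.62, 9.36 and 9.62 in mock and 9.19, 9.02 and 9.09 with NAC, a difference of -0.43 ± 0.14, and was picked out after its values were seen. Il7r went the other way (0.56 ± 0.40, with overlap). The mean of the list on the mock arrays was -0.16, -0.05 and 0.21, and on the NAC arrays -0.24, -0.14 and -0.16, so the groups overlap and mock 3 is the highest. Without mock 3 the median was -0.13. In the mutant the median was -0.15.

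Blood stem cell genes were lower in 25 of 28, with a median of -0.23. The NAC arrays were all below the mock arrays for 6 of 28, namely Hlf, Gata2, Tal1, Lmo2, Gfi1b and Txnip, against 5.32% of all genes. Hlf, a transcription factor of the most primitive blood cells, was at 7.35, 7.87 and 7.76 in mock and 7.16, 7.20 and 7.33 with NAC, a difference of -0.43 ± 0.17 (limma adjusted p of 0.812). Gfi1b, a repressor of stem and erythroid-megakaryocytic cells, was at 7.71, 7.68 and 7.41 in mock and 6.81, 7.35 and 6.86 with NAC, a difference of -0.59 ± 0.20. Tal1, which founds the blood programme with Gata2 and Lmo2, was at 5.17, 5.34 and 5.03 in mock and 4.65, 4.80 and 4.58 with NAC, a difference of -0.50 ± 0.19. Pdzk1ip1, a membrane protein gene expressed in stem cells, differed by -0.78 ± 0.24 with overlap, and Gata2 by -0.40 ± 0.21. The surface marker gene Slamf1 (CD150) was at 2.84, 3.35 and 3.93 in mock and 2.78, 3.05 and 3.25 with NAC. The list mean was -0.13, 0.04 and 0.08 on the mock arrays and -0.22, -0.18 and -0.31 with NAC, with no overlap. The median was -0.13 without mock 3 and -0.30 without mock 1, and -0.17 in the mutant. Separate list means were not particular to stem cell genes. They were also seen for S phase, LSK gate, BCL2 family, plasma cell, immunoglobulin chain, stromal and endothelial, and sex-linked genes.

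Markers of the LSK gate and of multipotent progenitors were lower in 10 of 14, with a median of -0.12 (-0.08 without mock 3, -0.17 without mock 1). Flt3, the cytokine receptor of lymphoid-primed progenitors, was at 8.82, 8.94 and 9.35 in mock and 8.86, 8.65 and 8.68 with NAC, and Kit differed by -0.15 ± 0.11. Cd27 was at 7.80, 8.24 and 7.91 in mock and 7.65, 7.75 and 7.70 with NAC, with no overlap. Kmt2e itself, the gene deleted in the mutant, was between 7.39 and 7.68 in mock and between 7.37 and 7.78 with NAC in wild type.

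Granulocyte and monocyte progenitor genes were higher in 19 of 21, with a median of 0.36, and in the mutant the median was 0.53. None of the 21 separated the groups, against 5.42% of all genes with NAC all above mock and 5.32% all below. In the examples that follow wild-type mock 1 lay within or above the range of the NAC arrays. Csf1r, the receptor of the macrophage growth factor, was at 5.76, 4.70 and 4.65 in mock and 6.14, 5.77 and 5.76 with NAC, a difference of 0.85 ± 0.33. Hp, haptoglobin, was at 8.52, 6.68 and 6.38 in mock and 7.75, 8.10 and 8.15 with NAC, a difference of 0.81 ± 0.57. Ms4a3, a gene that marks these progenitors, was at 9.18, 7.91 and 7.97 in mock and 8.82, 9.12 and 9.19 with NAC. Mpo, the myeloperoxidase of primary granules, was at 11.58, 11.10 and 11.00 in mock and 11.45, 11.67 and 11.57 with NAC, and the neutrophil elastase gene Elane at 11.12, 9.98 and 9.75 and at 10.70, 10.87 and 10.90. The list mean was 0.44, -0.21 and -0.23 on the mock arrays and 0.28, 0.37 and 0.47 with NAC. Without mock 1 the median was 0.61.

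Genes of mature myeloid cells were mixed. Of 22 neutrophil granule genes 13 were higher, with a median of 0.13 (0.08 without mock 3, 0.22 without NAC 2). Of 23 monocyte and macrophage genes 14 were higher, with a median of 0.12 that turned to -0.01 without mock 2. Wfdc21, of neutrophils, was at 6.37, 5.48 and 4.97 in mock and 6.97, 6.67 and 7.18 with NAC, a difference of 1.33 ± 0.34 with no overlap. S100a9 differed by 0.61 ± 0.33, and Chil3, a product of later granulocytes and macrophages, by -0.75 ± 0.41. Among monocyte genes Cx3cr1 differed by 1.32 ± 0.38 with overlap, Ccr2 by 0.72 ± 0.24 with overlap, and Spic, a factor of iron-recycling macrophages, by -0.80 ± 0.21 with no overlap. Ly6d, an early marker of lymphoid commitment, was at 4.38, 4.39 and 4.87 in mock and 5.49, 5.36 and 5.27 with NAC, a difference of 0.83 ± 0.24, while Lax1, a lymphocyte adaptor, differed by -0.63 ± 0.21. Of 17 erythroid genes 13 were higher, with a median of 0.08 that turned to -0.02 without mock 3. Ermap differed by 0.93 ± 0.31 and the carbonic anhydrase gene Car2 by -0.52 ± 0.16.

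Genes of chromosome segregation and mitosis were higher in 24 of 25, by small amounts, with a median of 0.22 and differences from -0.05 to 0.46. Plk1, a mitotic kinase, was at 7.18, 7.21 and 6.79 in mock and 7.36, 7.44 and 7.59 with NAC, a difference of 0.40 ± 0.14 with no overlap. Kif2c, which depolymerises microtubules at the centromere, was at 5.66, 6.23 and 6.10 in mock and 6.65, 6.57 and 6.15 with NAC. Cdc25c, the phosphatase that activates the mitotic kinase, was at 4.85, 5.53 and 4.24 in mock and 5.58, 5.14 and 4.95 with NAC. The NAC arrays were all above the mock arrays for 3 of 25, against 5.42% of all genes. The list mean was -0.06, 0.24 and -0.18 on the mock arrays and 0.19, 0.26 and 0.16 with NAC, so mock 2 was within the range of the NAC arrays. The median was 0.12 without mock 3 and 0.33 without mock 2, and 0.09 in the mutant.

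Promoters of this group are shown because its members leaned the same way. Genes of G2 and M phase are known to be held silent in resting cells by the DREAM complex, which binds a cell cycle homology region (CHR, searched as TTTGAA or TTCGAA), and to be activated through CCAAT boxes. Both were searched on both strands in the 250 bases before the start site in RefSeq's promoter table (build GRCm38.p6), which held 20 of the 25 genes. Of these 20, 10 had a CHR (50.0%, against 19.6% of 27025 genes of the table), 17 had a CCAAT box (85.0% against 37.5%) and 9 had both (45.0% against 7.93%). The list was made of known genes of this phase, so these shares describe the list and not the NAC difference. Kif2c (0.46) had no CCAAT box, Plk1 (0.40) and Aurka (0.34) had no CHR and Birc5 (0.32) had neither. Ube2c, which differed by 0.01, had both. The upstream sequences of 3 members with both are printed 5′ to 3′ in the direction of the gene, with every match to either motif in capitals, those on the other strand reading TTCAAA and ATTGG. A match is a run of letters and not a measured site.
Cdk1 (chr10:69352913-69353162, minus strand): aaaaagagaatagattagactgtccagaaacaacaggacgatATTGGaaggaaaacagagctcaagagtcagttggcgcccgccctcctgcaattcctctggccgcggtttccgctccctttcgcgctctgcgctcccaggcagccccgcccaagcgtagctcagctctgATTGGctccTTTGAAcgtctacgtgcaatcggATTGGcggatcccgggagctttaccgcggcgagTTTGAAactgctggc
Kif11 (chr19:37376132-37376381, plus strand): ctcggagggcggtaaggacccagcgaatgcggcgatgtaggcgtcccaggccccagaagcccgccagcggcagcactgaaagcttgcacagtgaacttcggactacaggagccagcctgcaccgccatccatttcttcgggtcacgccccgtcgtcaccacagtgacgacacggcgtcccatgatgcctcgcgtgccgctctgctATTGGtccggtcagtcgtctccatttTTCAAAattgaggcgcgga
Ccnb2 (chr9:70421555-70421804, minus strand): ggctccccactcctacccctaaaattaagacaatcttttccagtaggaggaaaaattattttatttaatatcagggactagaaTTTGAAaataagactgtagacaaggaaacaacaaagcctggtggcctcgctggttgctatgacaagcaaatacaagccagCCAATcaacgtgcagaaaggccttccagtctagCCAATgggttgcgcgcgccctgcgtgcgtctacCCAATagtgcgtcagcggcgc

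The values of these 3 genes were small and overlapped. Cdk1, the kinase that drives entry into mitosis, was at 8.03, 8.85 and 8.16 in mock and 8.65, 8.56 and 8.67 with NAC, a difference of 0.28 ± 0.18. Kif11, the motor that separates the spindle poles, was at 7.37, 7.67 and 7.19 in mock and 7.54, 7.88 and 7.51 with NAC, a difference of 0.23 ± 0.16. Ccnb2, a B-type cyclin and partner of Cdk1, was at 8.38, 8.74 and 8.29 in mock and 8.87, 8.68 and 8.51 with NAC, a difference of 0.22 ± 0.17. For all 3 the highest mock value was mock 2.

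Genes of S phase and DNA replication were higher in 21 of 25, with a median of 0.14 (0.09 without mock 3, 0.21 without NAC 3). Gins1, a part of the replicative helicase, was at 5.77, 5.78 and 6.08 in mock and 6.53, 6.36 and 6.52 with NAC, a difference of 0.59 ± 0.16 with no overlap (limma adjusted p of 0.543). Cdc6, which loads that helicase, differed by 0.49 ± 0.18, and Ccne1, a cyclin of S phase entry, by 0.44 ± 0.19. The list mean was 0.02, 0.02 and -0.04 on the mock arrays and 0.15, 0.21 and 0.12 with NAC. The groups did not overlap, as for several other lists, stromal and endothelial genes among them.

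Genes of DNA damage response and repair were higher in 18 of 24, with a median of 0.10 (0.06 without mock 3). Brca2, which loads the recombinase in homologous recombination, was at 5.94, 5.91 and 6.20 in mock and 6.64, 6.75 and 6.41 with NAC, a difference of 0.58 ± 0.14 with no overlap (limma adjusted p of 0.5). Brca1 differed by 0.36 ± 0.17 and Xrcc1 by 0.31 ± 0.19. Targets of p53 were lower in 17 of 23, with a median of -0.11 (-0.05 without mock 2, -0.17 without NAC 2), against 0.07 in the mutant. Besides Sesn1, Btg2, an anti-proliferative gene, was at 9.42, 9.25 and 9.56 in mock and 9.04, 9.07 and 8.87 with NAC, a difference of -0.42 ± 0.12 with no overlap, and Gtse1, a G2 phase gene, differed by 0.44 ± 0.20.

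Bid, a member of the BCL2 family that carries death signals to mitochondria and is phosphorylated by ATM, was at 4.62, 4.51 and 4.23 in mock and 5.0, 4.99 and 5.12 with NAC. All 3 NAC arrays were above the mock arrays. The difference was 0.58 ± 0.14, with a limma p of 0.000863 and an adjusted p of 0.497, against 0.04 in the mutant. Bcl2l1, which encodes the survival protein BCL-XL, was at 4.15, 4.29 and 4.45 in mock and 3.66, 3.94 and 3.96 with NAC, a difference of -0.44 ± 0.16 with no overlap, and Apaf1, the scaffold of the apoptosome, differed by 0.29 ± 0.20. Of 22 BCL2 family and caspase genes 15 were higher, with a median of 0.08 that was -0.01 without mock 1.

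**Figure D5:**
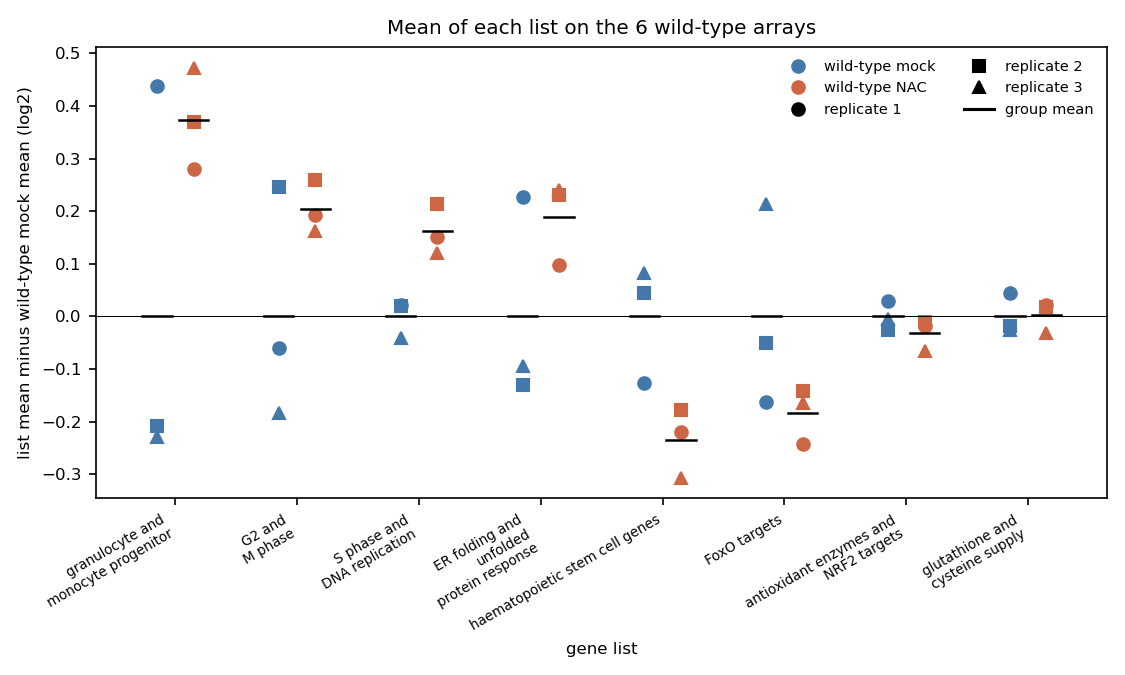
Mean of 8 gene lists on each of the 6 wild-type arrays, as the log2 difference from the wild-type mock mean, with marker shapes for the replicate and a bar for each group mean. The groups do not overlap for S phase genes and blood stem cell genes, mock 1 lies among the NAC arrays for granulocyte and monocyte progenitor and endoplasmic reticulum genes, mock 2 for G2 and M phase genes, and the 2 redox lists lie within 0.07 of 0.

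Endoplasmic reticulum folding genes were higher in 19 of 24, with a median of 0.23 (0.36 without mock 1) and 0.20 in the mutant. The NAC arrays were all above the mock arrays for 6 of 24, against 5.42% of all genes. Sdf2l1, a partner of the chaperone BiP, was at 8.0, 6.97 and 6.76 in mock and 7.75, 7.89 and 8.08 with NAC, with mock 1 in the range of the NAC arrays. BiP's own gene, Hspa5, was at 8.39, 7.84 and 7.82 in mock and 8.10, 8.26 and 8.38 with NAC, with mock 1 again high. Atf6, a sensor of unfolded proteins, was at 6.49, 6.31 and 6.15 in mock and 6.71, 6.78 and 6.68 with NAC, a difference of 0.41 ± 0.16 with no overlap, and Pdia6, a disulfide isomerase, differed by 0.41 ± 0.21. The mean of the list was 0.23, -0.13 and -0.09 on the mock arrays and 0.10, 0.23 and 0.24 with NAC.

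Interferon-stimulated genes were lower in 21 of 30, with a median of -0.14 (-0.07 without mock 3), and -0.14 in the mutant. Rtp4, which is induced by type I interferon, was at 7.25, 7.88 and 7.09 in mock and 6.49, 6.62 and 7.05 with NAC, a difference of -0.69 ± 0.24 with no overlap. Xaf1, an interferon-induced pro-apoptotic gene, was at 7.09, 6.87 and 6.99 in mock and 6.52, 6.48 and 6.33 with NAC, a difference of -0.54 ± 0.17 with no overlap, while Zbp1, a sensor of left-handed nucleic acids, differed by -0.54 ± 0.35 with overlap. The NAC arrays were below the mock arrays for 2 of 30 genes, against 5.32% of all genes.

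Immediate early genes, which respond within minutes to stimulation and to handling of cells, were lower in 21 of 29, with a median of -0.13 (-0.05 without mock 3, -0.20 without mock 2). Dusp2, a phosphatase of the list, differed by -0.45 ± 0.26, whereas Gadd45b, a stress-inducible gene, was at 5.59, 5.14 and 5.44 in mock and 6.29, 5.81 and 6.47 with NAC, a difference of 0.80 ± 0.26 with no overlap. Of 21 NF-kB and inflammatory genes 10 were higher and 11 lower. The chemokine gene Ccl4 was at 9.25, 9.24 and 10.01 in mock and 8.43, 8.52 and 8.93 with NAC, a difference of -0.87 ± 0.22 with no overlap (limma adjusted p of 0.5), and its neighbour in function Ccl3 differed by -0.45 ± 0.20.

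Metabolic lists stayed near the median of all genes. Oxidative phosphorylation genes were higher in 18 of 23, with a median of 0.07 (0.14 without mock 2), and the range of their differences was -0.10 to 0.33. Of 20 genes of the amino acid stress response under ATF4, 9 were higher, with Asns, the asparagine synthetase, at 0.40 ± 0.18 and Phgdh, the first enzyme of serine synthesis, at -0.38 ± 0.14. Of 21 hypoxia and glycolysis genes 14 were higher, with a median of 0.05 (0.00 without NAC 2, 0.10 without NAC 1), and Slc2a3, a glucose transporter, was at 5.72, 5.70 and 5.49 in mock and 5.04, 5.25 and 4.98 with NAC, a difference of -0.55 ± 0.14 with no overlap (limma adjusted p of 0.5). The other lists in the plot of gene list medians lay between -0.09, for HOX, MEIS and PBX genes (-0.02 without mock 3), and 0.16, for mast cell, basophil and eosinophil genes (0.03 without mock 2).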

How the data were processed

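RNA of sorted LSK cells was hybridised to 12 Affymetrix arrays. The deposited values are log2 signals made by the authors with RMA in Affymetrix Power Tools, per the submitters' processing notes. The log base is inferred from the range of values (0.74 to 13.23), and no version is stated in the sources used here. Of 41345 probe sets, 23521 carry a single gene symbol in the platform annotation. Each of 22180 symbols was represented by its brightest probe set on average of the 12 arrays, with no filter. limma 3.58.1 (R 4.3.3) fitted a mean for each of the 4 groups to all 12 arrays, with contrasts for NAC against mock in wild type and in the mutant and for their difference, Benjamini-Hochberg adjustment over all genes and a threshold of 0.05. In simulated data the fit found 13.4% of log2 changes of 0.5, 75.5% of changes of 1 and 96.4% of changes of 2. Most small differences would thus be missed. Figures were drawn with matplotlib 3.10.9.

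Named genes are the 12 with the smallest p in each direction among genes at or above the median level (3.17), 5 in each direction of the interaction, and up to 3 members of each list by size of difference, also at or above that level. Kmt2e, Bid, Kit, Flt3 and Slamf1 are given whatever their values. Left out of this rule, though not of the counts, were predicted or clone-named genes, olfactory and vomeronasal receptors, immunoglobulin and T cell receptor segments, microRNAs and small nucleolar RNAs. Genes added for their role or after their values were seen are Igkj1 and the other immunoglobulin chain genes, Jchain, Irf4, Xbp1, Mzb1, Sdc1, Pax5, Cd79a, Ms4a1, Ly6g, Cd3e, Cd34, Ptprc, Kdm5d, Eif2s3y, Uty, Hlf, Gata2, Lmo2, Txnip, Mpo, Elane, Hspa5, Cdk1, Kif11, Ccnb2, Gclc, Gclm, Slc7a11, Sod1, Gpx1, Txn2, Blvrb and Cat. The comparison, the lists and the rules were chosen with earlier results of these data known. Intensities give no read depth, and 3 arrays a group limit the precision. With 3 arrays against 3, an exact permutation test of a single gene cannot go below a p of 0.1, so limma's pooled spread is used.

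The replicate numbers were given in accession order and pair nothing. The deviations of same-numbered wild-type arrays from their group means correlated at 0.006, 0.019 and -0.057. Alternatives were array weights, a filter on genes below the median level, median centring, new quantile normalization, limma's trend and robust options, averaging the probe sets of a symbol, testing all probe sets, the 6 wild-type arrays alone, a replicate block and leaving out each wild-type array. Added after the data were seen were a fit without the 2 lowest-weighted arrays (wild-type mock 1 and mutant NAC 1) and the filter together with trend and robust.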

Additional observations from a re-analysis of the deposited data

Results flagged for a closer look

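Probe sets without a single gene symbol took no part in the comparison of genes. When all 41345 probe sets were tested together with limma, 4 of them passed the adjusted threshold of 0.05, all higher with NAC in wild type. Probe set 17284402 was at 2.66, 2.38 and 3.01 in mock and 6.83, 9.42 and 8.30 with NAC, a difference of 5.50 ± 0.52 (limma adjusted p of 0.00938). Probe set 17459392 was at 2.01, 1.78 and 1.95 in mock and 7.03, 6.62 and 5.34 with NAC, a difference of 4.42 ± 0.35 (limma adjusted p of 0.00247). Both were between 1.85 and 3.12 on all 6 mutant arrays, mock and NAC alike. Probe set 17284376 was at 6.71, 6.59 and 6.81 in mock and 8.07, 8.19 and 8.28 with NAC, a difference of 1.48 ± 0.17 (limma adjusted p of 0.0437), against -0.04 in the mutant. Probe set 17345319 was at 3.51, 3.18 and 3.41 in mock and 4.68, 4.84 and 4.55 with NAC, a difference of 1.32 ± 0.15 (limma adjusted p of 0.0373), against -0.22 in the mutant. The tests of wild type against mutant gave limma interaction adjusted p of 0.0954 to 0.428 for the 4. What these probe sets read is not analysed here.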

How the results depend on the processing

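The count of genes that rose was 1 in the reported fit, 5 over all probe sets, of which 4 have no single gene symbol, and 657 at an unadjusted p under 0.05. Leaving out single wild-type arrays gave 1 to 4, with 4 without NAC 2 and 2 without NAC 3. The count of genes that fell was 1 in the reported fit, 2 with the filter at the median level, with trend and robust, with both and at an adjusted p under 0.10, 0 in the wild-type arrays alone and over all probe sets, and 656 at an unadjusted p under 0.05. Leaving out single wild-type arrays gave 0 to 1. The interaction gave 0 genes, and 0 to 2 when single wild-type arrays were left out. The cause of these shifts was not tested. The replicate block gave 1 gene higher and 1 lower, Igkj1 and Gprc5b, and changed no call. Igkj1 passed in every fit run. Of 1951 refitted values for 115 named genes, 1 changed sign, Tlcd1 at 0.08 with the mean of its probe sets, 6 lost a call, all of Gprc5b, and 5 gained one, namely Zfp972 in 3 fits, Siglece without NAC 2 and Igkv6-23 without NAC 3. Signals near the lower end of the scale may understate differences. A probe set that reads several genes may understate a difference of its named gene or show one of another gene.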
